A study of Mus musculus with 6 samples.

Results

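Zinc, iron, copper and magnesium handling genes were examined in the pituitary gland of male mice on the 2 diets labelled RD and HFD. The genes were chosen by name: the SLC11A, SLC30A, SLC31A, SLC39A, SLC40A and SLC41A transporter families, the CNNM, NIPA, NIPAL and STEAP families, and named genes of iron storage, iron regulation, copper transport and zinc sensing. They made up 59 of the 16736 rows of the count table. TF and FTL, also named in the choice, have no row under those symbols and were not analysed here. The study compared bulk RNA-seq libraries labelled pituitary, 3 labelled RD and 3 labelled HFD, all taken after 16 h of fasting and 4 h of feeding. The series title sets the comparison in obesity. The labels give tissue, sex and diet, do not spell out the diet abbreviations, and name no strain, age, genotype or batch, nor whether replicates of a group were separate animals. The p-values therefore rest on library-to-library spread, which may be technical.

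Metal ions cross membranes by way of proteins: transporters, channels, pumps and receptors. SLC39A proteins move zinc into the cytosol and SLC30A proteins move it out or into vesicles. Iron enters on transferrin through its receptor, is stored in ferritin and leaves through ferroportin, and the iron regulatory proteins adjust these by binding hairpins in the transcripts. In endocrine cells, zinc and copper are also loaded into the secretory pathway, where copper serves the enzyme that amidates peptide hormones.

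Most of these genes were at similar levels on both diets, and the 2 that passed the test, NIPAL1 and SLC41A2, are both magnesium transporter genes and were both lower in HFD. Of the 59 members, 53 had enough counts to be tested. By edgeR's quasi-likelihood test with Benjamini-Hochberg adjustment over all 13873 tested genes, a gene is called when its adjusted p is under 0.05. By that measure, 0 members rose and 2 fell. Called members were 3.77% of those tested, beside 10.5% of all genes. By direction, 0% of members rose, beside 5.87% of all genes, and 3.77% fell, beside 4.61%. At an unadjusted p under 0.05 there were 11 members (20.8%), beside 26.5% of all genes, and the groups did not overlap for 13 members (24.5%), beside 32.5%. The median log2(HFD/RD) was -0.03 over the members and 0 over all tested genes.

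The precision was high enough to bound most of the differences. For 46 of the 53 members the 95% interval of the log2 change lay within 2-fold either way, and for 38 it lay within 1.5-fold either way. The 7 with wider intervals were NIPAL1, SLC30A10, SLC39A14, SLC39A2, SLC39A4, SLC39A8 and SLC41A3. Totals ranged from 14185372 to 18111345 counts per library over the listed rows, and the members took 0.258% to 0.266% of them in every library. Levels are CPM, counts relative to the library total after scaling by TMM factors, and differences are log2(HFD/RD) ± SE.

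**Figure D1:**
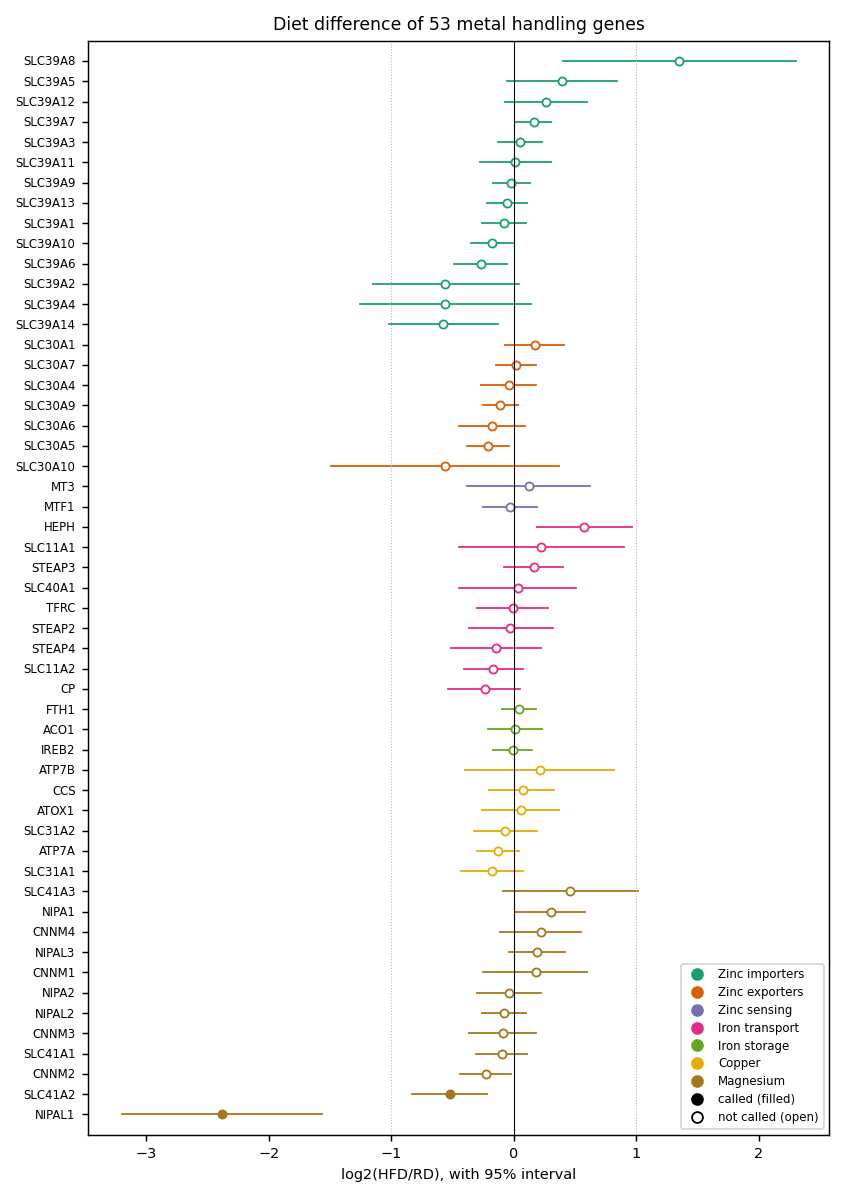
Log2(HFD/RD) of the 53 tested members with 95% intervals, grouped and coloured by role; filled points were called, open points were not, and dotted lines mark 2-fold either way. NIPAL1 (-2.38) and SLC41A2 (-0.52) are the filled points, and most open points lie close to 0.

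The magnesium transporters held both called genes. NIPAL1 encodes a magnesium transporter of the NIPA-like family and lies on chromosome 5 of mm10 (72647795 to 72671078, plus strand). It stood at 3.79, 5.34 and 9.07 CPM in RD replicates 1, 2 and 3 and at 1.32, 0.951 and 1.22 CPM in HFD replicates 1, 2 and 3. Every HFD library was below every RD library, and RD replicate 3 was the highest of all. The mean fell from 6.07 ± 2.71 to 1.16 ± 0.19 CPM (SD, n = 3 each), a log2 change of -2.38 ± 0.36 (adjusted p = 0.00497), which is 0.192 of the RD level. It was called in each of the 17 other fits, with log2 changes from -2.64 to -1.97, the smallest being without RD replicate 3. As NIPAL1 is a gene of low level, its HFD values rest on 14 to 19 counts per library, or on fewer read pairs if both mates were counted.

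SLC41A2, a magnesium carrier related to bacterial MgtE transporters, lies on chromosome 10 (83230848 to 83337882, minus strand). It was at 24.2, 24.4 and 32 CPM in RD and at 20.5, 17.9 and 17.6 CPM in HFD. The groups did not overlap, though RD replicate 3 again stood above the other RD libraries. Its log2 change was -0.52 ± 0.14 (adjusted p = 0.0387), to 0.696 of the RD level. The call depended on single libraries: it was lost without RD replicate 2 (adjusted p = 0.0521), RD replicate 3 (0.0595), HFD replicate 1 (0.0641), HFD replicate 2 (0.138) or HFD replicate 3 (0.152), and with library size as the only scaling (0.0511). The log2 change over the leave-one-out fits ran from -0.60 to -0.38.

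The DNA just before the starts of these 2 genes, the only members called lower, is shown from RefSeq (GRCm38.p6). It lies upstream of both the RefSeq and the GENCODE start and is read on the strand of the gene. The NIPAL1 stretch is chr5:72647546-72647794 (plus strand) and the SLC41A2 stretch chr10:83337883-83338067 (minus strand).
NIPAL1: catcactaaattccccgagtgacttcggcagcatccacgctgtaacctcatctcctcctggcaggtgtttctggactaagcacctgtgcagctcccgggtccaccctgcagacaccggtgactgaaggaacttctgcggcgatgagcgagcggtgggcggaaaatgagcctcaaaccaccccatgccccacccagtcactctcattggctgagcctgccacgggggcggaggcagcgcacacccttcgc
SLC41A2: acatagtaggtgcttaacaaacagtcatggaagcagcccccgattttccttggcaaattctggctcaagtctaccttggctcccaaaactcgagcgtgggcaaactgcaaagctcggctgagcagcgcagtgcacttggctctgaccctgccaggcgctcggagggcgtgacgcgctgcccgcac
Neither printed stretch holds the core letters of the metal response element, TGCGCNC or TGCACNC on either strand, at which the zinc sensor MTF1 binds. Over the 250 bases before the RefSeq start, 19 of the 50 members with an entry held at least 1 such match (38.0%), beside 3560 of 12515 genes with a row (28.4%). The single match of the SLC41A2 window lies in the part not printed, downstream of the GENCODE start.

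Of the other 10 tested magnesium genes none was called, and 2 had an unadjusted p under 0.05. CNNM2, a membrane protein of renal magnesium reabsorption, was at 54.6, 53.3 and 49.1 CPM in RD and at 42.3, 42.0 and 49.7 CPM in HFD, with HFD replicate 3 inside the RD range (-0.23 ± 0.09, adjusted p = 0.155). NIPA1, an endosomal and plasma membrane magnesium transporter, was at 14.9, 12.5 and 14.7 CPM in RD and at 16.7, 18.9 and 16.1 CPM in HFD (0.30 ± 0.13, adjusted p = 0.175). The NIPA1 groups did not overlap, yet the difference did not pass after adjustment. The paralogs of SLC41A2 were not called: SLC41A1, the plasma membrane sodium and magnesium exchanger, had a log2 change of -0.10 ± 0.09, and SLC41A3 one of 0.46 ± 0.25 with a 95% interval from -0.09 to 1.01. NIPAL3, the magnesium gene with the highest level per length, was at 103, 92.2 and 75.9 CPM in RD and 99.4, 105 and 104 CPM in HFD (0.19 ± 0.10). Its exons overlap those of STPG1 on the opposite strand, and strand use in counting is not known. The other 5 tested genes, CNNM1, CNNM3, CNNM4, NIPA2 and NIPAL2, had log2 changes between -0.09 and 0.22. The NIPA2 exons overlap those of CYFIP1 on the opposite strand. NIPAL4 had at most 2 counts in any library and was not tested.

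**Figure D2:**
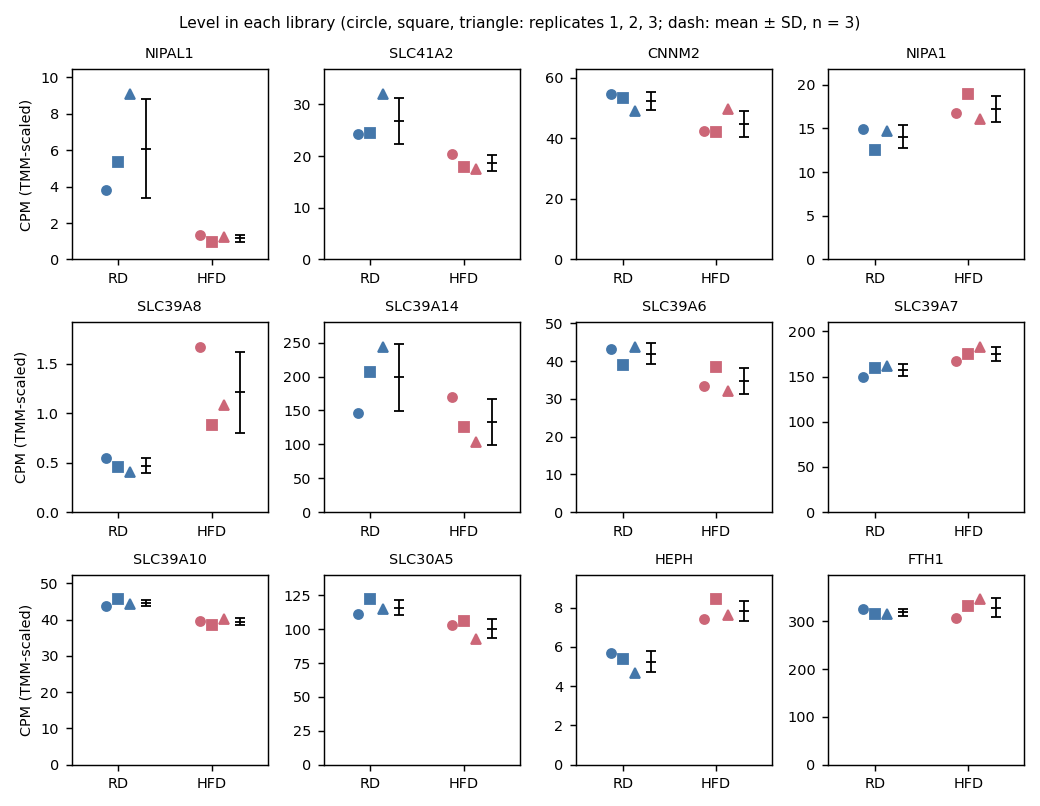
TMM-scaled CPM of 12 members in each library (circle, square and triangle are replicates 1, 2 and 3), with mean ± SD beside them; each panel starts at 0 and has its own axis. RD replicate 3 is the highest NIPAL1 value (9.07 CPM), SLC39A14 overlaps between the groups, and FTH1 spans only 307 to 346 CPM.

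None of the 14 zinc importer genes was called, and 5 had an unadjusted p under 0.05. SLC39A14, which carries manganese, zinc and iron not bound to transferrin, was among the highest of the family per length and varied widely between replicates (coefficient of variation 24.9% in RD and 25.5% in HFD). It was at 146, 207 and 244 CPM in RD and at 170, 126 and 104 CPM in HFD. The groups overlapped, since RD replicate 1 lay below HFD replicate 1. Its log2 change was -0.58 ± 0.20 (adjusted p = 0.098). Without RD replicate 1 it was called (-0.77, adjusted p = 0.0228), while in the other 5 leave-one-out fits the log2 change ran from -0.79 to -0.41 with no call.

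SLC39A8, the closest relative of SLC39A14 and also a manganese and zinc carrier, differed in the opposite direction at a level near the limit of detection. It was at 0.551, 0.456 and 0.405 CPM in RD, which is 7 to 9 counts, and at 1.67, 0.883 and 1.08 CPM in HFD, 13 to 24 counts. The groups did not overlap, and the log2 change of 1.35 ± 0.43 did not pass (adjusted p = 0.0746).

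The other 3 were abundant genes with small differences. SLC39A7 releases zinc from the endoplasmic reticulum and was at 150, 160 and 162 CPM in RD and 167, 175 and 183 CPM in HFD (0.16 ± 0.06, adjusted p = 0.16). It was called only with library size as the sole scaling (0.22, adjusted p = 0.0491), which moved the median of all genes up by 0.07. The plasma membrane importer SLC39A10 was at 43.9, 45.6 and 44.4 CPM in RD and 39.6, 38.5 and 40.3 CPM in HFD (-0.18 ± 0.08, adjusted p = 0.175). SLC39A6, its partner in zinc uptake, was at 43.3, 38.9 and 43.8 CPM in RD and 33.4, 38.5 and 32.2 CPM in HFD (-0.27 ± 0.10, adjusted p = 0.107). In each of these 3 genes the groups did not overlap and the 95% intervals excluded 0, but the differences did not pass after adjustment over all tested genes.

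Among the 9 remaining importers, log2 changes ran from -0.56 (SLC39A2 and SLC39A4) to 0.39 (SLC39A5). SLC39A4, the intestinal importer mutated in acrodermatitis enteropathica, stood at 1.65 ± 0.215 CPM in RD against 1.11 ± 0.129 CPM in HFD. The exons of SLC39A2, SLC39A9 and SLC39A13 overlap those of METTL17, ERH and PSMC3, so some of their reads may belong to those genes. The SLC39A7 exons overlap those of GM20427 on the same strand, a gene without a row.

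None of the 7 tested zinc exporter genes was called, and only SLC30A5 had an unadjusted p under 0.05. It was at 111, 122 and 115 CPM in RD and 103, 106 and 92.5 CPM in HFD. SLC30A5 pairs with SLC30A6 to load zinc into the early secretory pathway. The groups did not overlap, and the log2 change of -0.21 ± 0.08 did not pass (adjusted p = 0.114). SLC30A6 had a log2 change of -0.18, and SLC30A7, the Golgi exporter, one of 0.02. SLC30A9, a zinc exporter of mitochondria, was lower in every HFD library than in any RD library (113 ± 2.13 CPM against 122 ± 3.58 CPM) without being called (adjusted p = 0.282). SLC30A10, a manganese exporter, rested on 7 to 18 counts per library and had a 95% interval from -1.49 to 0.37. The exporter of synaptic vesicles, SLC30A3, had 0 counts in all 6 libraries. Counting error alone allows up to 0.173 to 0.208 CPM (3 counts), and more if both mates of a read pair were counted. SLC30A8, the exporter of insulin granules, had 0 to 4 counts and SLC30A2, known from the mammary gland, 2 to 13, and neither was tested.

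SLC30A1, the plasma membrane exporter, is a textbook target of MTF1 and its upstream window is shown for the metal response element match it holds, in capitals. It covers chr1:191906531-191906766 on the plus strand (RefSeq, GRCm38.p6), and the capitals are TGCACNC read on the opposite strand.
SLC30A1: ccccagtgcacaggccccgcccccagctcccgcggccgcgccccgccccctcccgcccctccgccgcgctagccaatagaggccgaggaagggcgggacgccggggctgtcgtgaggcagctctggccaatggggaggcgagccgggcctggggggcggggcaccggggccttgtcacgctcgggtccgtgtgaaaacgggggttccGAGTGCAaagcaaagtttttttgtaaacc
SLC30A1 was at 23.1, 24.6 and 28.7 CPM in RD and 29.8, 28.4 and 27.7 CPM in HFD (0.17 ± 0.11, adjusted p = 0.36). MTF1 itself, the zinc-sensing transcription factor, was at 59.1 ± 6.33 CPM in RD against 58.0 ± 4.41 CPM in HFD (-0.03 ± 0.10). The zinc-binding metallothionein MT3, known from brain, was at 9.73, 7.75 and 6.82 CPM in RD and 6.17, 10.7 and 9.53 CPM in HFD (0.12 ± 0.23). None of the 3 was called, and the 95% interval of MTF1, from -0.25 to 0.19, was the narrowest of them.

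The 3 iron genes whose transcripts matched the iron responsive element pattern searched here were at like levels on both diets. Such an element is a hairpin with a bulged C, a stem and the loop CAGTGN, bound by the iron regulatory proteins ACO1 and IREB2. It lies before the coding sequence in ferritin and ferroportin transcripts, where binding blocks translation, and after it in the transferrin receptor transcript, where binding protects the RNA. The pattern searched, on the transcript strand, was a C, 5 bases, the loop CAGTGN and 5 bases able to pair with the 5 before the loop. It was found in the GENCODE M21 transcripts of 4 of the 59 members (6.78%) and of 288 of 21864 protein-coding genes (1.32%). An element with an unpaired base in this stretch of stem would be missed, so genes without a match may still carry one. The matches of the 3 iron genes are printed with the loop in capitals, because all 3 are regulated through this element.
FTH1: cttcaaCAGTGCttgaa
SLC40A1: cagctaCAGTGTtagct
TFRC element 1: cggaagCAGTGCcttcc
TFRC element 2: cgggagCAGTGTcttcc
TFRC element 3: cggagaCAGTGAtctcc
TFRC element 4: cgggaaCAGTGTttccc
The FTH1 match is in the 5′ UTR at chr19:9982738-9982754 (plus strand), and that of SLC40A1 in the 5′ UTR at chr1:45925471-45925487 (minus strand). The 4 TFRC matches lie in the 3′ UTR within chromosome 16, from chr16:32631225-32631241 to chr16:32631716-32631732 (plus strand). The fourth gene, NIPAL3, had a match of the letters in its 3′ UTR, which is a description and not a known site. Transcript levels alone do not show how ferritin or ferroportin was translated.

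FTH1, the ferritin heavy chain, was the most abundant member. It was at 326, 315 and 315 CPM in RD and at 307, 332 and 346 CPM in HFD, a log2 change of 0.04 ± 0.06 with a 95% interval from -0.10 to 0.18. The HFD values surrounded the RD values, and the interval allows only small differences either way. TFRC, the transferrin receptor, was at 33.3, 32.1 and 44.5 CPM in RD and 39.3, 35.2 and 34.5 CPM in HFD (-0.01 ± 0.13). RD replicate 3 was the highest of the 6, and without it the log2 change was 0.15 with no call (adjusted p = 0.366). SLC40A1, which encodes ferroportin, the iron exporter, was at 7.65, 9.96 and 6.70 CPM in RD and 6.94, 7.40 and 10.4 CPM in HFD (0.03 ± 0.21). The RNA-binding regulators did not differ either beyond their spread: IREB2 was at 145 ± 1.82 and 143 ± 11.1 CPM (-0.01 ± 0.07), and ACO1 at 43.0 ± 4.17 and 43.3 ± 2.97 CPM (0.01 ± 0.10).

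Of the 9 tested genes of iron uptake, export and systemic control none was called, and HEPH alone had an unadjusted p under 0.05. HEPH encodes hephaestin, a copper-dependent ferroxidase that works with ferroportin. It was at 5.69, 5.40 and 4.68 CPM in RD and 7.42, 8.42 and 7.64 CPM in HFD, with every HFD library above every RD library. The log2 change of 0.57 ± 0.17 missed the threshold (adjusted p = 0.0615), and it passed in 1 of 17 other fits, with library size as the only scaling (0.64, adjusted p = 0.0456). The HEPH exons overlap those of HSF3 on the opposite strand, a gene without a row. Oligodendrocytes are among the cells known to make hephaestin. The 9 myelin and oligodendrocyte marker rows summed to 67.9 to 79 CPM in RD and 81.5 to 184 CPM in HFD, the highest being HFD replicate 3. Of the 6 tested, MAG and CNP were called higher, while MBP, MOBP, SOX10 and OLIG1 were not called. MBP and MOBP overlapped between the groups and were highest in HFD replicate 3 (136 and 15.5 CPM). SOX10 had a log2 change of -0.06 ± 0.35 and OLIG1 one of 0.05 ± 0.46. OLIG2 had at most 3 counts in any library, and the part of these cells in the HEPH values was not tested.

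The related ferroxidase CP, ceruloplasmin, was at 58.6, 44.7 and 44.0 CPM in RD and 36.0, 42.3 and 46.2 CPM in HFD (-0.24 ± 0.13). The groups overlapped, and the CP exons overlap those of HPS3. SLC11A2, the divalent metal transporter DMT1, was at 57.1 ± 7.29 CPM in RD against 50.7 ± 4.06 CPM in HFD (-0.17 ± 0.11). Its relative SLC11A1, the phagosome transporter of macrophages, was at 3.94 ± 1.68 and 4.6 ± 0.528 CPM, while the 12 macrophage markers summed to 94.9 to 123 CPM in RD and 106 to 127 CPM in HFD. Of the STEAP metalloreductases, which reduce iron and copper for transport, STEAP2 was at 74.7, 76.0 and 48.8 CPM in RD and 72.1, 62.6 and 60.8 CPM in HFD (-0.03 ± 0.16), STEAP3 had a log2 change of 0.16 and STEAP4 one of -0.15. STEAP1 (4 to 21 counts) was not tested. HAMP, which encodes the liver iron hormone hepcidin, had 2 counts in RD replicate 1, 2 in HFD replicate 3 and 0 in the other 4 libraries, and was not tested. In bulk tissue, fewer cells of a type and less RNA per cell cannot be told apart.

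The 6 copper genes showed no called difference, nor any at an unadjusted p under 0.05. ATP7A, the Golgi copper pump that supplies secreted copper enzymes, was at 102, 103 and 112 CPM in RD and 102, 96.3 and 91.3 CPM in HFD (-0.13 ± 0.07, adjusted p = 0.30). HFD replicate 1 was the nearest to RD, and the 95% interval ran from -0.30 to 0.04. ATP7B, the pump known from liver, was at 4.53 ± 0.998 and 5.24 ± 1.56 CPM. SLC31A1, the copper importer CTR1, was at 37.9, 38.9 and 44.7 CPM in RD and 30.6, 38.4 and 38.1 CPM in HFD (-0.18 ± 0.11). SLC31A2, a vesicular copper transporter, had a log2 change of -0.07 ± 0.12. The copper chaperones ATOX1, which hands copper to the pumps, and CCS, which loads superoxide dismutase, had log2 changes of 0.06 and 0.07.

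Per transcript length, the order of the members was led by FTH1. Levels are given here as TPM, computed from the counts and the median length of each gene's GENCODE transcripts, over rows with a length. In RD, FTH1 was at 818 ± 32.5 TPM, SLC39A14 at 225 ± 51.7, SLC39A7 at 194 ± 5.19 and SLC30A5 at 93.7 ± 4.86 TPM (SD, n = 3). SLC39A14 and SLC39A7 do not differ beyond the spread of SLC39A14, and with the longest transcript of each gene their order turned (125 and 211 TPM). SLC39A13, an importer of the early secretory pathway, followed at 77.3 ± 2.15 TPM and SLC31A2 at 72.5 ± 9.19 TPM, which do not differ beyond the spread either. With the longest transcript SLC39A13 was at 77 TPM and SLC31A2 lower, at 45.2 TPM. Of the iron transport genes, STEAP2 at 38.8 ± 9.70 TPM and SLC11A2 at 36.5 ± 3.75 TPM do not differ beyond their spread, and with the longest transcript SLC11A2 (40.2 TPM) stood above STEAP2 (20 TPM). The magnesium genes were led by NIPAL3 at 55.5 ± 9.51 TPM. NIPAL1, the gene that fell most, was among the least abundant, at 3.42 ± 1.44 TPM in RD and 0.662 ± 0.109 TPM in HFD.

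**Figure D3:**
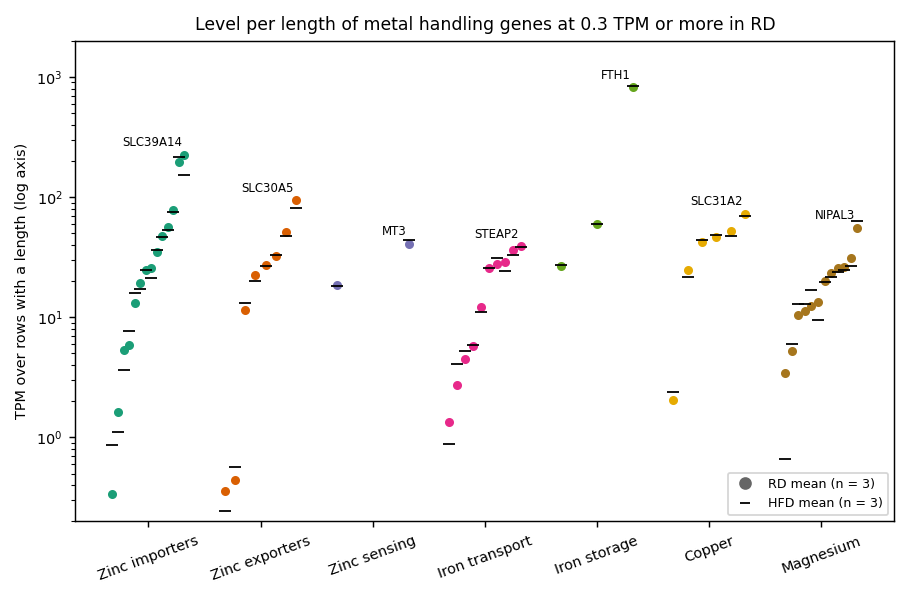
Mean TPM in RD (points) and HFD (dashes) on a log axis for members at 0.3 TPM or more in RD, by role, with the highest of each role by median transcript length named (n = 3 per group). FTH1 (818 TPM in RD) stands above all others, and the widest gap between point and dash is that of NIPAL1 (3.42 and 0.662 TPM).

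Other genes of metal handling, 112 rows on 8 lists outside the choice above, gave 4 higher and 5 lower calls among 99 tested (the share over all genes was 5.87% higher and 4.61% lower), with a median log2 change of -0.03. Of the 4 higher calls, 3 were on the list of iron sensing and systemic iron control. On that list 7 of 13 tested genes had log2 changes above 0 and 6 below. BMPR1A was among the 6 (-0.18 ± 0.06, adjusted p = 0.0956). BMP6, a ligand that drives hepcidin in liver, was at 26.7, 21.7 and 25.1 CPM in RD and 44.7, 40.4 and 43.5 CPM in HFD (0.81 ± 0.10, adjusted p = 0.00213). The BMP6 groups lay far apart, and the call held in all 17 other fits. NEO1, neogenin, a receptor that binds the BMP co-receptor hemojuvelin, rose from 238 ± 28.5 to 347 ± 17 CPM (0.55 ± 0.09, adjusted p = 0.00587) and was called in all 17 as well. HFE, the hemochromatosis protein, rose from 17.3 ± 3.03 to 26.3 ± 3.58 CPM (0.60 ± 0.15, adjusted p = 0.0338), a call lost in 5 of 17, among them the fits without RD replicate 2, RD replicate 3, HFD replicate 2 or HFD replicate 3 (adjusted p up to 0.139). HAMP was near 0 in these libraries, as given above, and BMP6, NEO1 and HFE also act outside iron control.

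Lower calls fell on several lists. FLVCR1, a heme exporter and choline transporter, was at 88.0, 93.1 and 87.3 CPM in RD and 67.0, 68.3 and 61 CPM in HFD (-0.45 ± 0.08, adjusted p = 0.0073), with the call kept in all 17 other fits. LCN2, which binds iron-loaded siderophores, fell from 32.3 ± 2.38 to 21.7 ± 2.97 CPM (-0.57 ± 0.12, adjusted p = 0.0179), a call lost only without HFD replicate 3 (0.0742). PAM, the copper enzyme that amidates peptide hormones, was at 1000, 1120 and 1130 CPM in RD and 881, 963 and 898 CPM in HFD (-0.25 ± 0.06, adjusted p = 0.0397). The PAM call was less stable, holding in 9 of 17 and, of the leave-one-out fits, only without RD replicate 1 (adjusted p up to 0.154). TMC6, which binds the SLC30A1 zinc exporter (-0.46 ± 0.11, adjusted p = 0.0331, called in 11 of 17 and lost without RD replicate 2 or any 1 HFD library, adjusted p up to 0.102), and CCDC93, of the complex that recycles copper pumps (-0.26 ± 0.07, adjusted p = 0.045, called in 9 of 17 and, of the leave-one-out fits, only without RD replicate 3, adjusted p up to 0.141), fell as well. The extracellular superoxide dismutase gene SOD3 rose (0.52 ± 0.14, adjusted p = 0.0491) but was called in only 6 of 17 other fits and, of those leaving out a library, only without HFD replicate 1 (adjusted p up to 0.199).

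Over all genes 10.5% were called, a share at which lists as short as these would hold few calls. No list was tested against it. None of the 18 tested genes of iron-sulphur cluster assembly was called, none of 10 magnesium channel and regulator genes and none of 4 manganese pump genes. The magnesium channel gene TRPM7 was at 143 ± 9.01 CPM in RD against 131 ± 9.95 CPM in HFD and the mitochondrial channel gene MRS2 at 57.6 ± 5.55 and 56.4 ± 2.43 CPM. The row named MT2A, a metallothionein, was at 32.9, 29.9 and 46.5 CPM in RD and 44.0, 41.7 and 42.6 CPM in HFD (0.23 ± 0.15, adjusted p = 0.362). RD replicate 3 lay with the HFD libraries there. Of the 22 heme and mitochondrial iron genes only FLVCR1 was called, and 1 of 11 genes of iron chaperones and reductases fell (LCN2). The list headed metallothioneins and other zinc genes had 4 tested genes, MT2A, TMC6, TMC8 and SLC25A39. Of them TMC6 fell, and only MT2A is a metallothionein. Of 13 genes of iron sensing 3 rose, and of 17 copper genes 1 rose and 2 fell (over all genes, 5.87% rose and 4.61% fell).

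Markers of the gland and of its other cells bear on all of these bulk tissue values. The 11 rows of hormone cell markers summed to between 86600 and 97000 CPM in RD and between 59600 and 66600 CPM in HFD, with 2 called higher and 5 lower, so the labelled tissue was present in every library. Fibroblast markers summed to 570 to 623 CPM in RD and 414 to 536 CPM in HFD, with COL1A2 called lower among 8. Folliculostellate and pituicyte markers summed to 322 to 426 CPM and 243 to 356 CPM, with CRYAB and VIM called lower among 12. Endothelial and mural markers summed to 704 to 727 CPM and 715 to 765 CPM with 1 of 12 called, erythroid markers (4 rows, none of them a globin) to 66.5 to 108 CPM and 57.7 to 127 CPM with none called, and neuronal markers to 608 to 673 CPM and 593 to 683 CPM with none of 9 called. The share called over all genes was 10.5%. Of these marker sums, the hormone cell, fibroblast and myelin sums did not overlap between the diets. Single genes weigh heavily in such sums. GH1, the largest part of the hormone cell sum, was at 58900 to 71600 CPM in RD and 36600 to 39500 CPM in HFD. COL1A2, the largest part of the fibroblast sum, was at 248 to 311 CPM in RD and 166 to 195 CPM in HFD. SNAP25 (271 to 277 CPM in RD, 273 to 294 CPM in HFD) and SYT1 (261 to 278 and 222 to 300 CPM) made up most of the neuronal sum. Other genes on that list were far lower, such as AVP (0.651 to 1.04 and 0.694 to 1.49 CPM). The neuronal sum is therefore a poor measure of neuronal content. Log2 changes were above 0 for 5 of 11 hormone cell genes and 2 of 8 fibroblast genes. The part of these cell types in the calls of NIPAL1 and SLC41A2 was not tested.

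**Figure D4:**
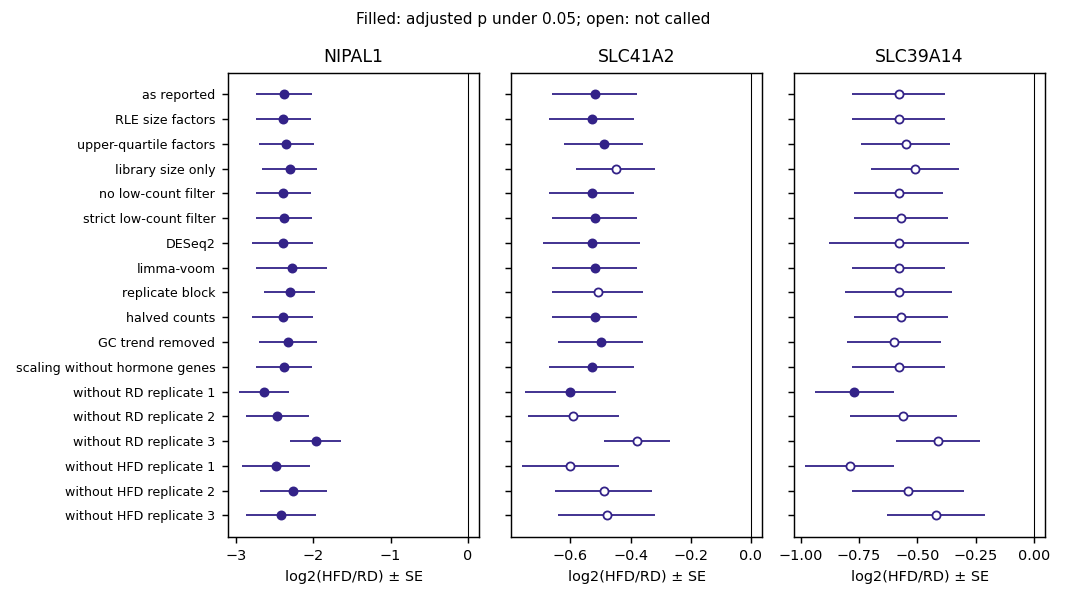
Log2(HFD/RD) ± SE of NIPAL1, SLC41A2 and SLC39A14 in the reported fit and 17 other fits, filled where the adjusted p was under 0.05; each panel has its own axis. NIPAL1 is filled throughout, SLC41A2 is open in 7 of the other fits, and SLC39A14 is filled only without RD replicate 1.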

How the data were processed

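The deposited table holds raw read counts per gene symbol for 6 libraries, with no normalization by the authors. The genome build was mm10 per the submitters' processing notes; aligner, counter and gene annotation were not given in the sources used here. Among counts from 1 to 10, 64.0% to 67.0% were even, against 48.9% to 50.4% above 200, so both mates of a read pair may have been counted. Diets were compared by the quasi-likelihood test of edgeR 4.0.16 under R 4.3.3 (TMM factors, minimum count 10, minimum total 15, an intercept and diet), two-sided. Each SE was obtained from the F statistic, as the change over its square root, and intervals use the model's degrees of freedom. Alternatives were other scalings and filters, DESeq2 1.42.0, limma-voom (limma 3.58.1), halved counts, GC trends removed (loess span 0.4), scaling without the hormone genes, a replicate block, and each library left out. Symbols were matched apart from case to GENCODE M21 for coordinates, lengths and transcripts (59 of 59 members), and to RefSeq for 50 upstream windows. Exon overlaps are not named for every member that has one. Near-identical replicates were checked: chi-square per degree of freedom between replicates ran from 4.4 to 20.3. The fit was tested on simulated data. Values in each library are given for called members, members with an unadjusted p under 0.05 and the highest of each role; others are named for their role, and called genes of the other lists by p. The members and lists were chosen with earlier results of these data known. Of the marker genes listed at the outset, 1 is not reported here and was left out of its list's sum and counts.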

Additional observations from a re-analysis of the deposited data

How the results depend on the processing

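Of the 2 called members, NIPAL1 was called in all 17 other fits and SLC41A2 in 10. The count of called members was 2 in 9 of the 11 fits that kept every library, 3 with library size only and 1 with the replicate block; at adjusted p thresholds of 0.10 and 0.01 it was 5 and 1, and with a library left out it ran from 1 to 3. Over all genes 1453 were called, 808 with the replicate block, 2343 and 412 at the thresholds of 0.10 and 0.01, and 431 to 1523 with a library left out (890 without RD replicate 2, and 701, 490 and 431 without HFD replicates 1, 2 and 3). Of the other metal genes 9 were called, 4 with the replicate block and 4 to 9 with a library left out (4 when RD replicate 2 and 4 when either of HFD replicates 2 and 3 was dropped). The replicate numbers did not pair the libraries: deviations from the group means correlated at -0.13, 0 and -0.1 for numbers 1, 2 and 3, and 1 of 3 RD libraries correlated best with its own number. The block ended the call of SLC41A2 (adjusted p = 0.0816). The GC correction with the block was therefore not run.

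Members near 0 changed sign without a call. TFRC was at 0.02 with upper-quartile factors, 0.06 with library size only, 0.04 with the GC trend removed, 0.15 with RD replicate 3 left out, 0.01 with HFD replicate 2 left out and 0.02 with HFD replicate 3 left out; its lowest value with a library left out was -0.1. STEAP2 was at 0.03 with library size only, 0.01 with the GC trend removed, and 0.06, 0.07 and 0.02 without RD replicate 1, RD replicate 2 and HFD replicate 3 (lowest -0.22, without RD replicate 3). IREB2 was at 0.02, 0.05 and 0.04 with those 3 corrections and 0.05 without HFD replicate 3 (lowest -0.06), and MTF1 at 0.01 and 0.04 with the first 2, 0.06 without RD replicate 3 and 0.02 without HFD replicate 3 (lowest -0.09). SLC40A1 was at -0.02, -0.10 and -0.17 without RD replicate 1, RD replicate 3 and HFD replicate 3 (highest 0.2), ACO1 at -0.07 and -0.05 without RD replicate 2 and HFD replicate 2, and MT3 at -0.04 without HFD replicate 2 (highest 0.32). The cause was not tested. The median log2 change of the members was 0.04 with library size only, where that of all genes was 0.07. With library size only, calls over all genes were 1121 higher and 425 lower, against 814 and 639. With the longest transcript FTH1 was at 664 TPM and SLC30A5 at 114 TPM in RD. Depth limits the genes with libraries under about 20 counts, the more so if both mates of a read pair were counted. These are SLC39A8, SLC30A10, the 6 untested members, and in HFD also NIPAL1 (14 to 19 counts) and SLC39A4 (14 to 18 counts).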

Other observations

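In 4 cases 2 members lie near each other on the same strand of the genome; genes lying between them were not looked for. NIPA1 and NIPA2, 15.1 kb apart on chromosome 7, had log2 changes of 0.30 and -0.04. CNNM3 and CNNM4, 3.1 kb apart on chromosome 1, were at -0.09 and 0.22, SLC31A1 and SLC31A2, 62.3 kb apart on chromosome 4, at -0.18 and -0.07, and STEAP1 and STEAP2 are 41.7 kb apart on chromosome 5, where STEAP1 was too low to test. None of these genes was called, and differences within these pairs were not tested.

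RD replicate 3 was the lowest RD library for 24 of the 53 tested members (45.3%), beside 37.9% of all tested genes, and the highest for 16 (30.2%), beside 39% of all tested genes. Among members picked after their values were seen, it was the highest for NIPAL1, SLC41A2, SLC39A14, TFRC and SLC11A2 and the lowest for STEAP2, NIPAL3, CNNM3, CNNM4 and SLC41A3.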
